A study of Mus musculus with 8 samples.

Results

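Glucose is made from smaller carbon units by gluconeogenesis, and fructose is fed into the same carbon pool by a short pathway of its own. Described here are 7 genes of these pathways, chosen by symbol from a table of 52195 genes: G6pc, Slc37a4, Pck1, Fbp1, Pcx, Pklr and Khk. All 7 were found in the table and all 7 passed the filter on low values, as did 16328 genes in all. The levels come from bulk RNA sequencing of whole liver, kidney, small intestine and lung, where each tissue has 2 libraries, which makes 8. The mice were males of the inbred strain C57BL/6J per the methods (C57BL/6 in the labels), aged 6 to 10 weeks, and no transgene or treatment is given for any group. Libraries of the same tissue are described as biological replicates. All tissues were taken from each animal, but no label ties a library to a mouse. Whether the mice were fed or fasted, and the time of day, are not given in the sources used here. In a whole tissue, fewer cells of a type and less RNA per cell cannot be told apart.

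Liver and kidney are the main organs that release glucose into the blood during fasting, and the small intestine is known to add a smaller share. The pathway runs backwards through most of glycolysis and passes its irreversible steps with its own enzymes. Pyruvate carboxylase (Pcx) makes oxaloacetate from pyruvate in mitochondria, and the cytosolic phosphoenolpyruvate carboxykinase (Pck1) turns it into phosphoenolpyruvate. Fructose bisphosphatase (Fbp1) removes a phosphate from fructose bisphosphate. Glucose 6-phosphate is then carried into the endoplasmic reticulum by the transporter Slc37a4 and cut by the glucose-6-phosphatase G6pc, which frees the glucose. Liver-type pyruvate kinase (Pklr) works in the opposite direction, from phosphoenolpyruvate to pyruvate. Ketohexokinase (Khk) phosphorylates fructose and so commits it to breakdown. Lung takes up glucose and is not known as a glucose maker, so it serves as the contrast tissue.

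Levels are given as deposited, in FPKM, the number of sequenced fragments per length of exons and size of the library. This unit corrects for gene length and library size, so that levels of different genes may be set side by side. Differences between tissues were tested on log2(FPKM + 1), where the added 1 understates the change of low genes, with limma across all 16328 genes. A gene was called where the Benjamini-Hochberg adjusted p was under 0.05 and the absolute log2 difference over 1. Each value below rests on 9164147 to 21444632 reads per library. A count of 3 reads on a gene with 1 kb of exons corresponds to an FPKM of 0.140 to 0.327. The markers of hepatocytes, proximal tubule, other nephron segments, enterocytes and lung epithelium were above all other libraries in their own tissue for 6 of 6, 6 of 6, 5 of 5, 6 of 6 and 5 of 5 genes. Mitochondrial genes and their pseudogenes made up 22.8% to 25.4% of the summed FPKM in lung and 40.5% to 68.4% in the other libraries. The median log2 difference of all genes from lung was -1.13 for liver, -0.81 for kidney and -0.57 for small intestine. Between the other tissues it was -0.27 for liver against kidney, -0.50 for liver against small intestine and -0.18 for kidney against small intestine. Values after median-of-ratios scaling, which brings these medians close to 0, are therefore given wherever they alter a call or a direction.

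The genomic positions of the 7 genes are those of the GENCODE M21 annotation on build GRCm38. G6pc lies on chromosome 11 at 101367561 to 101377903, Slc37a4 on chromosome 9 at 44396852 to 44402968, Pck1 on chromosome 2 at 173153048 to 173159273, and Pcx on chromosome 19 at 4510472 to 4621752, all on the forward strand. Pklr on chromosome 3 at 89136142 to 89146784 and Khk on chromosome 5 at 30921431 to 30931248 are on the forward strand as well. Fbp1 lies on the reverse strand of chromosome 13 at 62864753 to 62888282, beside its paralog Fbp2 at 62836877 to 62858422. Of the exon length of Pklr, 22.0% is shared with the antisense gene Hcn3, and since the use of strand in counting is not stated, reads of the pair cannot be told apart there. The other 6 genes share no exon with another gene.

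The promoters of 4 of the genes are shown because they hold short sequences known to be bound by regulators of this pathway. Each is the RefSeq sequence of the 250 bases before a transcription start on build GRCm38.p6, forward strand, 5′ to 3′, with the matched motif in capitals. These starts lie after the GENCODE gene starts given above. The windows of G6pc, Pck1 and Khk therefore reach past those gene starts, and that of Pklr lies wholly beyond its own. G6pc and Pck1 held both an HNF1 half-site (GTTAAT, or ATTAAC where it is on the reverse strand) and a match to the cyclic AMP response element (TTACGTNA). Khk held the HNF1 half-site, and the second of the starts listed for Pklr held a carbohydrate response element (CANGNG and CNCNTG, 5 bases apart), the type of site bound by Mlxipl, the carbohydrate response factor also called ChREBP.
G6pc, chr11:101367466-101367715: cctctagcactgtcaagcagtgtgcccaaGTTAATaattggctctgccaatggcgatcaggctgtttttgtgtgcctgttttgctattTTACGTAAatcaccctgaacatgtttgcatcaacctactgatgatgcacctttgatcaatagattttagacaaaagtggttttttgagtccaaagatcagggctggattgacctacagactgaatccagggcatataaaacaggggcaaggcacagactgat
Pck1, chr2:173152823-173153072: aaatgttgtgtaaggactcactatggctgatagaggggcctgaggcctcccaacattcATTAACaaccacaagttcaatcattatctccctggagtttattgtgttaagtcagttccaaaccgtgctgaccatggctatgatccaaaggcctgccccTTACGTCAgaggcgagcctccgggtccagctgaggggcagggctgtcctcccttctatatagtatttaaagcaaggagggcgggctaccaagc
Khk, chr5:30921309-30921558: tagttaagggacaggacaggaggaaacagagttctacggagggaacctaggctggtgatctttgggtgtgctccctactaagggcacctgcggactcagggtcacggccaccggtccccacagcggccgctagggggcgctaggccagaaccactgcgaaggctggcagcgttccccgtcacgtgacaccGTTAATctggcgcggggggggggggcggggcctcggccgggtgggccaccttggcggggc
Pklr, chr3:89136373-89136622: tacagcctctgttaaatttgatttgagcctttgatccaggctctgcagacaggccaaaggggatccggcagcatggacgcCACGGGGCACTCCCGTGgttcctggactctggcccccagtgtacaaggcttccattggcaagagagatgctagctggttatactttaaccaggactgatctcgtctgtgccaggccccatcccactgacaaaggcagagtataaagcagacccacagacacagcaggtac

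In G6pc the half-site begins 221 bases before the start and the response element (TTACGTAA) spans 162 to 155 bases before it. In Pck1 the half-site begins 192 bases before the start and the response element (TTACGTCA) spans bases 93 to 86. In Khk the half-site spans bases 60 to 55, and in Pklr the carbohydrate response element (CACGGGGCACTCCCGTG) spans bases 170 to 154. Both strands were searched in the 32851 promoter windows of the genome, 11 of which belong to the 7 genes. The half-site was found in 6.43% of all windows and in 3 of the 11, the cyclic AMP element in 0.788% and in 2 of the 11, and the carbohydrate element in 0.454% and in 1 of the 11. The letters searched were chosen with the expression values known, and a match is a description of the sequence only.

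The last step of glucose release was measured at G6pc. Its level was 167 and 287 FPKM in the liver libraries, 254 and 198 in kidney, 32.7 and 42.0 in small intestine, and 1.48 and 0.733 in lung. Liver and kidney overlapped, small intestine was below both and lung was below all others. The mean was 227 ± 84.9 in liver, 226 ± 39.7 in kidney, 37.4 ± 6.51 in small intestine and 1.11 ± 0.531 in lung (SD, n = 2). Liver and kidney did not differ beyond their spread, with a log2 difference of -0.03 (95% interval -0.73 to 0.67, limma adjusted p = 0.965), or 0.51 after median-of-ratios scaling, which was not called either. Small intestine stood 6.09-fold below liver, a log2 difference of 2.53 (SE 0.30, limma adjusted p = 0.000248). It stood 6.05-fold below kidney (log2 2.56, SE 0.30, limma adjusted p = 0.00028). The small intestine was still 33.7-fold above lung (log2 4.20, SE 0.30).

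Slc37a4, the carrier that brings the substrate to G6pc, was likewise lowest in lung and next lowest in small intestine, with a smaller step between them. Its level was 67.5 and 45.0 FPKM in liver, 94.99 and 66.7 in kidney, 35.7 and 28.6 in small intestine, and 7.81 and 7.91 in lung. The liver and kidney libraries overlapped, while those of small intestine and lung did not overlap with any other tissue. The means were 56.3 ± 15.9, 80.9 ± 20.0, 32.1 ± 5.05 and 7.86 ± 0.0707 FPKM (SD, n = 2). The difference of liver from kidney was -0.52 (95% interval -1.10 to 0.05, limma adjusted p = 0.139), or 0.018 after median-of-ratios scaling. With mitochondrial genes left out and the sum restored, liver was called below kidney at -1.10 on the log2 scale. Kidney was called above small intestine (log2 1.29, SE 0.25, limma adjusted p = 0.00359). The difference of liver from small intestine was 0.77 (SE 0.25, limma adjusted p = 0.0295) and fell short of the fold threshold, but it was 1.63 and called after median-of-ratios scaling. Where G6pc was 205-fold higher in liver than in lung, Slc37a4 was 7.16-fold higher.

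**Figure D1:**
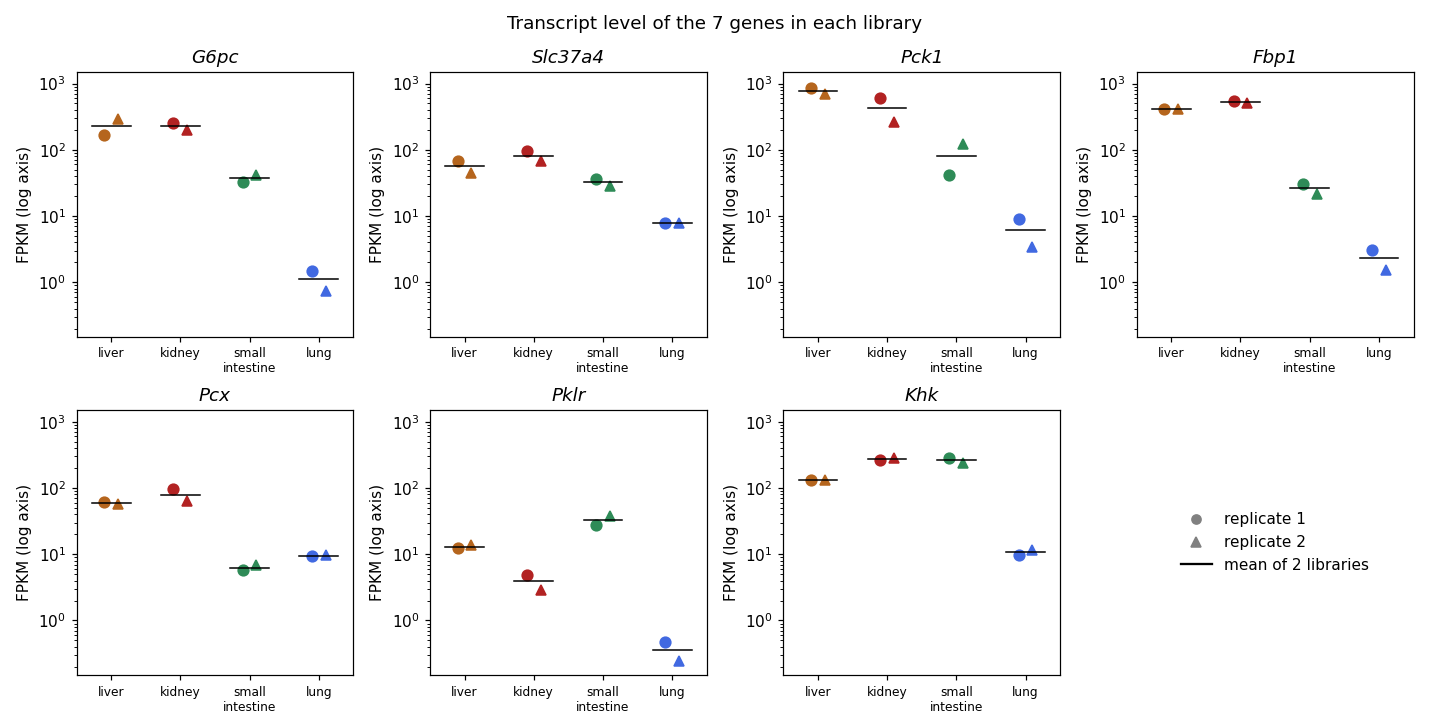
Level of each of the 7 genes in every library in FPKM on a log axis, with circles for replicate 1, triangles for replicate 2 and a line at the mean of the 2 libraries, coloured by tissue. G6pc, Pck1 and Fbp1 lie between 167 and 870.4 FPKM in liver and kidney and at most at 9.05 in lung, Pklr is highest in small intestine, and Khk has means of 278 in kidney and 265 in small intestine.

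Pck1 was the most abundant of the 7 transcripts in liver. Its level was 870.4 and 690.0 FPKM in liver, 598 and 258 in kidney, 41.8 and 121 in small intestine, and 9.05 and 3.45 in lung. The ranges of the tissues did not overlap, but the replicates lay far apart. The higher library was 2.31 times the lower in kidney, 2.89 times in small intestine and 2.62 times in lung. No other gene of the 7 reached 2.89. The means were 780 ± 128, 428 ± 240, 81.3 ± 55.9 and 6.25 ± 3.96 FPKM (SD, n = 2). Liver was above small intestine (9.60-fold, log2 3.43, SE 0.60, limma adjusted p = 0.00203). Liver and kidney did not pass the test (log2 0.98, 95% interval -0.43 to 2.39, limma adjusted p = 0.252). Kidney was called above small intestine (5.26-fold, log2 2.45, SE 0.60, limma adjusted p = 0.0122). That call was lost without kidney replicate 1 (log2 1.85, limma adjusted p = 0.0719) or without small intestine replicate 1 (log2 1.69, limma adjusted p = 0.0772).

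Pcx, which supplies Pck1 with oxaloacetate, had another order of tissues. Its level was 60.8 and 57.5 FPKM in liver, 96.5 and 63.0 in kidney, 5.69 and 6.88 in small intestine, and 9.47 and 9.65 in lung. The small intestine was thus the lowest tissue, below lung in both libraries. The means were 59.2 ± 2.29 in liver, 79.7 ± 23.7 in kidney, 6.28 ± 0.838 in small intestine and 9.56 ± 0.123 in lung (SD, n = 2). Liver was 9.42-fold and kidney 12.7-fold above small intestine, with log2 differences of 3.05 and 3.44 (SE 0.21 each) and limma adjusted p = 1.26e-05 and 8.7e-06. Liver and kidney were not told apart (log2 -0.39, 95% interval -0.88 to 0.10, limma adjusted p = 0.189, and 0.15 after median-of-ratios scaling). The difference of small intestine from lung was -0.54 (95% interval -1.03 to -0.05, limma adjusted p = 0.0544) on the deposited scale and 0.15 after median-of-ratios scaling, so its sign depends on the scaling and it was not called under either. Pcx is also abundant in fat cells, and the summed level of 5 adipocyte markers was 116 and 66.9 FPKM in lung, 21.8 and 20.4 in small intestine, and at most 1.86 in liver and kidney, where Lep was at 0 in all 4 libraries. Their part in the lung level of Pcx was not tested.

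Fbp1 had the largest difference of the 7 genes between small intestine and both liver and kidney. Its level was 419 and 417 FPKM in liver, 548 and 505 in kidney, 30.6 and 21.7 in small intestine, and 3.07 and 1.51 in lung. No tissue overlapped with another, and the replicates of liver were almost level. The means were 418 ± 1.28 in liver, 526 ± 30.7 in kidney, 26.2 ± 6.32 in small intestine and 2.29 ± 1.10 in lung (SD, n = 2). Fbp1 was 16.0-fold higher in liver and 20.1-fold higher in kidney than in small intestine (log2 3.97 and 4.30, SE 0.25 each, limma adjusted p = 7.66e-06 and 6.74e-06). The log2 difference of liver from kidney was -0.33 (95% interval -0.91 to 0.25, limma adjusted p = 0.35) and changed sign to 0.22 after median-of-ratios scaling, without a call under either. Liver stood 182-fold and kidney 230-fold above lung.

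Pklr, the enzyme of the opposite reaction, was highest in small intestine. Its level was 27.3 and 37.7 FPKM in small intestine, 12.4 and 13.6 in liver, 4.91 and 2.86 in kidney, and 0.475 and 0.249 in lung. The tissues did not overlap in this order. The means were 32.5 ± 7.35, 13.05 ± 0.853, 3.89 ± 1.45 and 0.362 ± 0.160 FPKM (SD, n = 2), the last from 15 and 10 reads. Small intestine exceeded kidney 8.36-fold (log2 of kidney against small intestine -2.79, SE 0.25, limma adjusted p = 7.25e-05). It exceeded liver 2.49-fold (log2 of liver against small intestine -1.24, SE 0.25, limma adjusted p = 0.00438), but after median-of-ratios scaling this difference was -0.41 and not called (limma adjusted p = 0.136). Liver was above kidney (3.36-fold, log2 1.56, SE 0.25, limma adjusted p = 0.00214). Pklr is also the pyruvate kinase of red cells. The summed level of 5 erythroid markers was 19195 and 24891 FPKM in lung, against 99.8 to 2409 FPKM in the other 6 libraries, and nearly all of it was haemoglobin. The fifth marker, Alas2, was highest in liver, at 35.5 and 31.6 FPKM, and was at 14.9 and 18.4 in lung and at most 2.16 in kidney and small intestine. The part of red cells in the levels of Pklr was not tested. The liver and red cell forms of Pklr arise from separate starts and are not separated in a value per gene.

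Khk was high in all of the glucose-making tissues. Its level was 268 and 288 FPKM in kidney, 288 and 242 in small intestine, 133 and 134 in liver, and 9.80 and 11.6 in lung. Kidney and small intestine overlapped, and liver was below both by about the same amount. The means were 278 ± 13.7, 265 ± 33.2, 133 ± 0.362 and 10.7 ± 1.30 FPKM (SD, n = 2). Kidney and small intestine differed by a log2 of 0.07 (95% interval -0.27 to 0.42, limma adjusted p = 0.724). Kidney was 2.09-fold above liver (log2 of liver against kidney -1.05, SE 0.15, limma adjusted p = 0.00099), a call that was lost after median-of-ratios scaling at -0.51 (limma adjusted p = 0.156). Small intestine was 1.99-fold above liver (log2 -0.98, SE 0.15, limma adjusted p = 0.000937), just short of the fold threshold, and -0.12 after the scaling. The isoforms of Khk, which differ in their affinity for fructose, are not separated in these values.

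**Figure D2:**
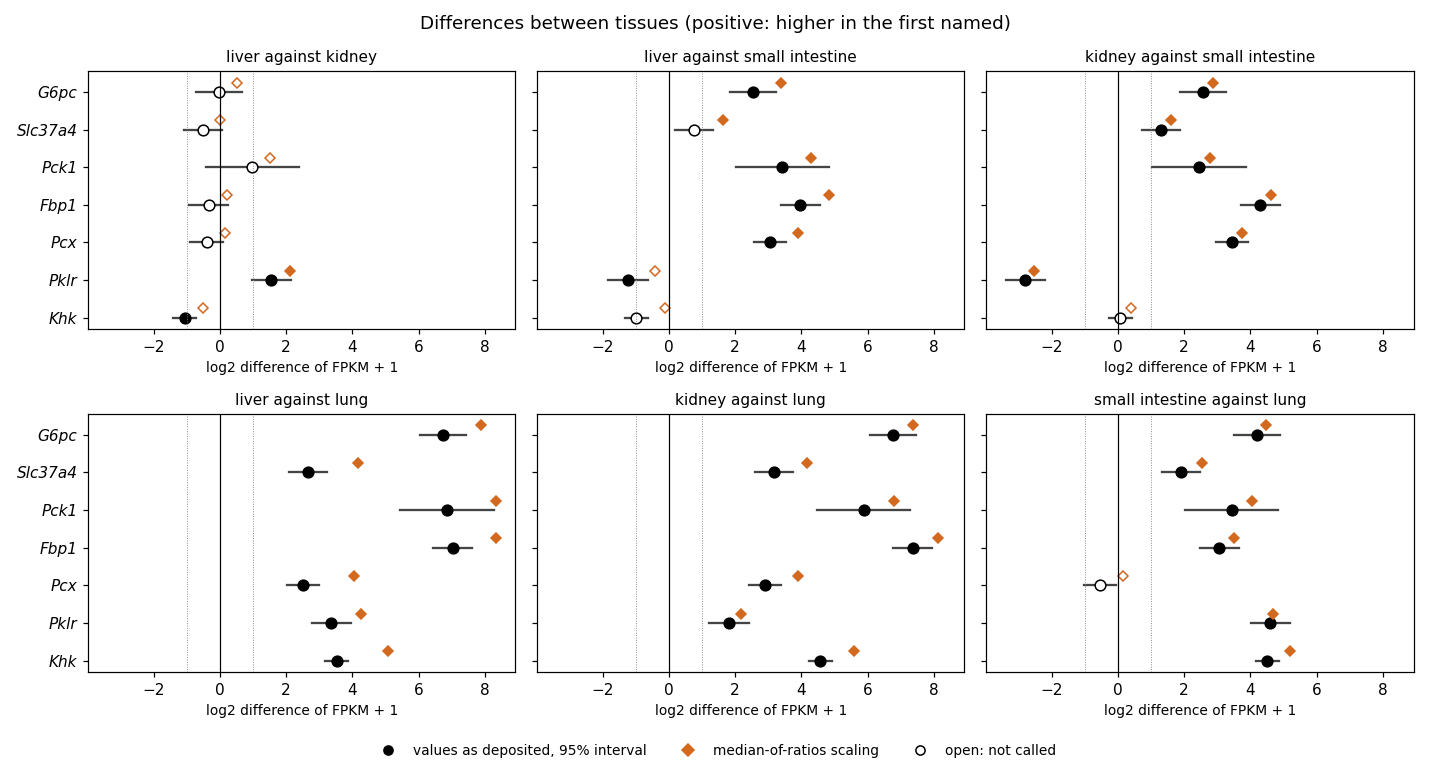
Log2 difference of FPKM + 1 for the 7 genes in each of the 6 pairs of tissues, positive where the tissue named first is higher, with 95% intervals for the deposited values (circles) and the estimate after median-of-ratios scaling (diamonds), open where not called. In the panel of liver against kidney 5 of 7 circles are open, while in the panels of liver and kidney against lung all 7 are filled. Of all genes tested, 23.1% were called in liver against kidney, 62.7% in liver against lung and 50.3% in kidney against lung.

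Counted over the 7 genes, liver against kidney gave the fewest calls of the 6 pairs, as it did over all genes tested. Pklr was called higher and Khk lower in liver than in kidney, so 2 of 7 were called, where 23.1% of all genes tested were called in the same comparison, and 1 of 7 (Pklr) after median-of-ratios scaling, where 23.7% were. The median log2 difference of the 7 genes was -0.33, beside -0.27 for all genes. Against small intestine, 4 of 7 were called higher in liver (Fbp1, Pck1, Pcx and G6pc) and 1 lower (Pklr), where 36.2% of all genes tested were called, 7.89% higher and 28.3% lower. After median-of-ratios scaling 5 were called higher, with Slc37a4 added, and 0 lower, where 15.2% and 16.5% of all genes were. The median of the 7 was 2.53, beside -0.50 for all genes. Of the 7, 5 were called higher in kidney than in small intestine (Fbp1, Pcx, G6pc, Pck1 and Slc37a4) and Pklr lower, where 29.5% of all genes tested were called, 10.7% higher and 18.8% lower. The median of the 7 was 2.45, beside -0.18 for all genes. Outside the liver, the typical spread between replicates was wider for the 7 genes than for all genes. The median absolute log2 difference between replicates was 0.124 for the 7 genes and 0.141 for all genes tested in liver, 0.503 and 0.296 in kidney, 0.348 and 0.178 in small intestine, and 0.240 and 0.150 in lung.

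Against lung, all 7 were called higher in liver, where 62.7% of all genes tested were called, 7.21% higher and 55.5% lower. All 7 were called higher in kidney too, where 50.3% were called, 8.87% higher and 41.4% lower. In small intestine 6 of 7 were called higher, with Pcx not called, where 40.6% of all genes tested were called, 10.1% higher and 30.6% lower. In the mean of liver, kidney and small intestine against lung, all 7 were called higher, where 49% of all genes tested were called, 8.26% higher and 40.7% lower. After median-of-ratios scaling the members called against lung were as many, where 19.3% of all genes were called higher and 20.0% lower for liver, 17.9% and 17.8% for kidney, 16.6% and 15.5% for small intestine, and 16.9% and 15.1% for the mean. The log2 differences of this mean were 5.90 for G6pc, 5.82 for Fbp1, 5.39 for Pck1, 4.20 for Khk, 3.26 for Pklr, 2.58 for Slc37a4 and 1.62 for Pcx. The phosphatases and Pck1 thus stood furthest from lung, and the transporter and the mitochondrial enzyme least far. These comparisons share the lung libraries.

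The lung levels of the 7 genes differed in size and in how the libraries compared. Relative to the mean of the highest tissue, lung replicate 1 and replicate 2 held 0.653% and 0.322% of G6pc, 0.583% and 0.287% of Fbp1, 1.16% and 0.442% of Pck1, and 1.46% and 0.766% of Pklr. They held 3.52% and 4.19% of Khk, 9.66% and 9.79% of Slc37a4, and 11.9% and 12.1% of Pcx. The first 4 genes were 1.91 to 2.62 times higher in lung replicate 1 than in replicate 2, whereas the ratio was 0.842 for Khk, 0.987 for Slc37a4 and 0.982 for Pcx. Markers of hepatocytes, nephron and enterocytes moved with the first 4. All 23 of these markers were higher in lung replicate 1, with a median ratio of 4.61 and a range of 1.08 to 20.4, and none was at 0 in either library. Their summed level in lung replicates 1 and 2 was 95.4 and 55.5 FPKM for the 6 hepatocyte markers, 12.1 and 3.83 for the 6 proximal tubule markers, 4.47 and 1.28 for the 5 markers of other nephron segments, and 17.3 and 3.28 for the 6 enterocyte markers. As a percentage of the own tissue, the medians were 0.229% and 0.137% for hepatocytes, 0.382% and 0.0635% for proximal tubule, 0.525% and 0.125% for other nephron segments, and 0.250% and 0.0444% for enterocytes. The summed level of the 5 adipocyte markers was also higher in lung replicate 1, at 116 against 66.9 FPKM, though Lep was at 0 there. The part of all these markers in the lung levels of G6pc, Fbp1, Pck1 and Pklr was not tested.

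**Figure D3:**
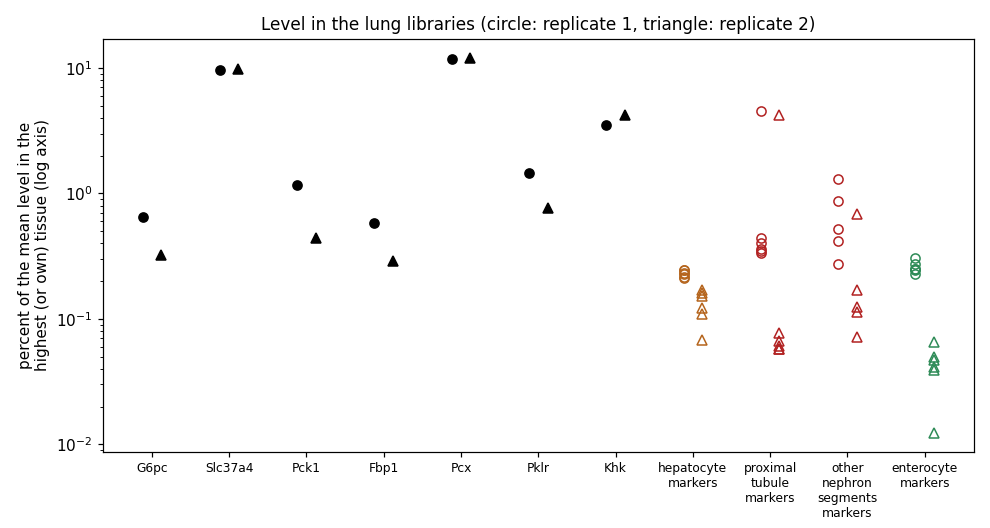
Level in lung replicate 1 (circles) and replicate 2 (triangles) as a percentage of the mean level in the highest tissue for the 7 genes (black) and of the own tissue for markers of hepatocytes, proximal tubule, other nephron segments and enterocytes (open symbols, one per marker), on a log axis. G6pc, Pck1, Fbp1 and Pklr lie between 0.287% and 1.46% with replicate 1 above replicate 2, as the markers do, while Slc37a4 and Pcx lie at 9.66% to 12.1% with both replicates level.

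For G6pc, Pck1, Fbp1 and Pklr a paralog was listed, and at fructose bisphosphatase the paralogs changed places in the small intestine. Fbp2, known as the muscle form, was at 200 FPKM in small intestine (199.8 and 201.0), 10.3 and 9.16 in kidney, 0.297 and 0.330 in liver, and 0.906 and 0.164 in lung. Small intestine was above each of the other tissues without overlap, and the liver values rest on 4 and 5 reads. The log2 difference of liver from small intestine was -7.26 (SE 0.24, limma adjusted p = 2.64e-07), and that of kidney from small intestine -4.23 (SE 0.24, limma adjusted p = 5.54e-06). Within the small intestine libraries Fbp2 exceeded Fbp1 6.52-fold and 9.27-fold. Within the kidney libraries Fbp1 exceeded Fbp2 53.0-fold and 55.1-fold. The summed FPKM of Fbp1 and Fbp2 was 230 and 223 in small intestine, 419 and 417 in liver, and 558 and 514 in kidney, so the sum differed less among these 3 tissues than Fbp1 alone.

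G6pc3, the widely expressed glucose-6-phosphatase, showed the reverse order of G6pc between liver and lung. It was at 1.72 and 2.48 FPKM in liver, 19.8 and 19.5 in kidney, 11.2 and 9.05 in small intestine, and 13.2 and 16.0 in lung. In liver G6pc exceeded it 97.5-fold and 116-fold, and in lung it exceeded G6pc 8.86-fold and 21.9-fold. Liver was called below kidney (log2 -2.75, SE 0.19, limma adjusted p = 2.12e-05). It was also called below lung (log2 -2.34, SE 0.19, limma adjusted p = 1.96e-05), a call that was lost after median-of-ratios scaling at -0.97. G6pc2, the form of pancreatic islets, had at most 3 reads in any library and was not tested.

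Pck2, the mitochondrial carboxykinase, was low throughout. It was at 0.363 and 0.323 FPKM in liver, 1.45 and 0.955 in kidney, 2.76 and 2.16 in small intestine, and 5.22 and 5.43 in lung. Lung was the highest tissue, and there the pair was near parity, with Pck1 at 1.73 and 0.635 times Pck2. In liver Pck1 was 2395 and 2139 times Pck2. Liver was called below lung for Pck2 (log2 -2.24, SE 0.18, limma adjusted p = 1.95e-05).

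Pkm, the pyruvate kinase of most other tissues, was at 2.95 and 3.04 FPKM in liver, 29.6 and 25.7 in kidney, 167 and 138 in small intestine, and 58.1 and 61.3 in lung. Liver was the single tissue in which Pklr exceeded Pkm in both libraries, 4.22-fold and 4.49-fold. Small intestine had the highest level of both pyruvate kinases, with Pkm 6.12-fold and 3.66-fold above Pklr. In kidney Pkm exceeded Pklr 6.02-fold and 8.998-fold. Liver was called below small intestine for Pkm (log2 -5.26, SE 0.15, limma adjusted p = 1.79e-07).

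**Figure D4:**
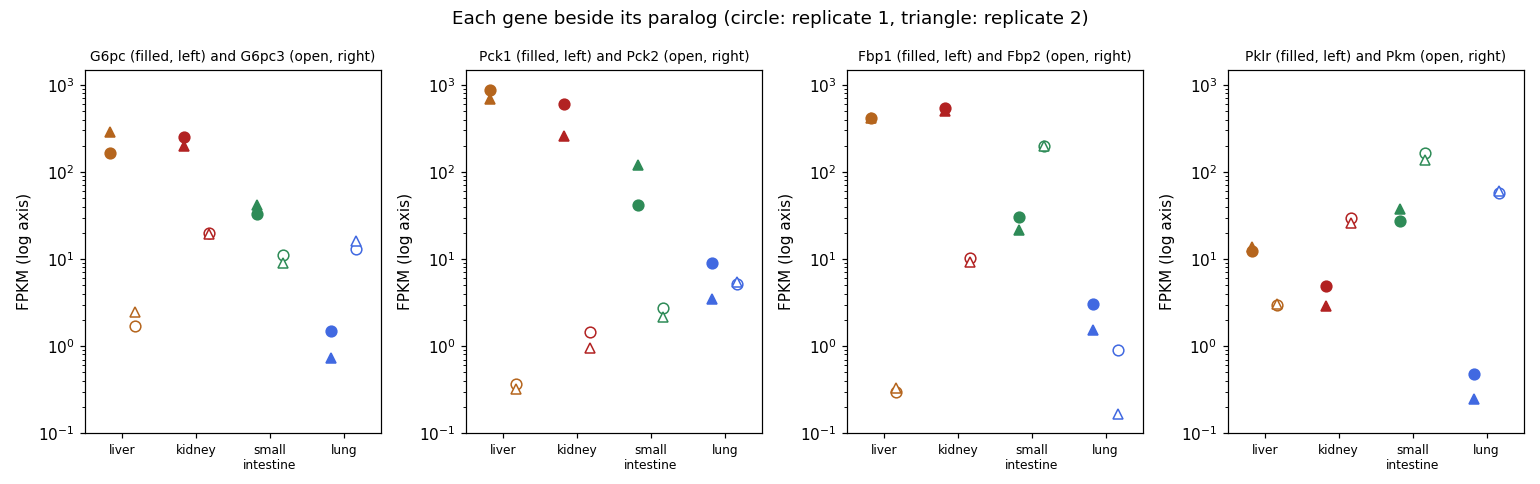
Level in FPKM (log axis) of G6pc, Pck1, Fbp1 and Pklr (filled, left of each pair) and of the paralogs G6pc3, Pck2, Fbp2 and Pkm (open, right), in every library by tissue. Fbp2 stands above Fbp1 in small intestine only, at 200 against 26.2 FPKM on average, and Pklr stands above Pkm in liver only.

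The glycolytic enzymes of the opposing direction were set against the gluconeogenic ones within each library, which removes any scaling between libraries. These ratios are a description, and no test was made of them. The ratio of Fbp1 and Fbp2 to the phosphofructokinases Pfkl, Pfkm and Pfkp ranked the tissues without overlap. On the log2 scale it was 5.85 and 5.80 in liver, 4.70 and 4.85 in kidney, 3.25 and 3.14 in small intestine, and -2.39 and -3.78 in lung. Different phosphofructokinases led in different tissues. Pfkp reached 14.8 and 18.3 FPKM in small intestine, Pfkm 11.04 and 9.44 in kidney, and Pfkl 8.98 and 9.73 in lung. The ratio of Pck1 and Pck2 to the pyruvate kinases Pklr and Pkm was 5.82 and 5.37 in liver, 4.12 and 3.18 in kidney, -2.12 and -0.51 in small intestine, and -2.04 and -2.79 in lung. At this step the ratio was below 0 in both small intestine libraries, as in lung, and above 0 in liver and kidney. With the most abundant isoenzyme alone it was -1.998 and -0.19 in small intestine and -2.68 and -3.50 in lung, without overlap. At the step of fructose bisphosphatase the small intestine was above 0 in both libraries. Of the hexokinases that act against G6pc, Hk1 was at 8.52 and 4.64 FPKM in kidney and 6.15 and 6.998 in lung, but only at 0.473 and 0.295 in liver, and in the small intestine at 1.21 and 0.921. Liver was called below kidney for Hk1 (log2 -2.41, SE 0.26, limma adjusted p = 0.000253).

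**Figure D5:**
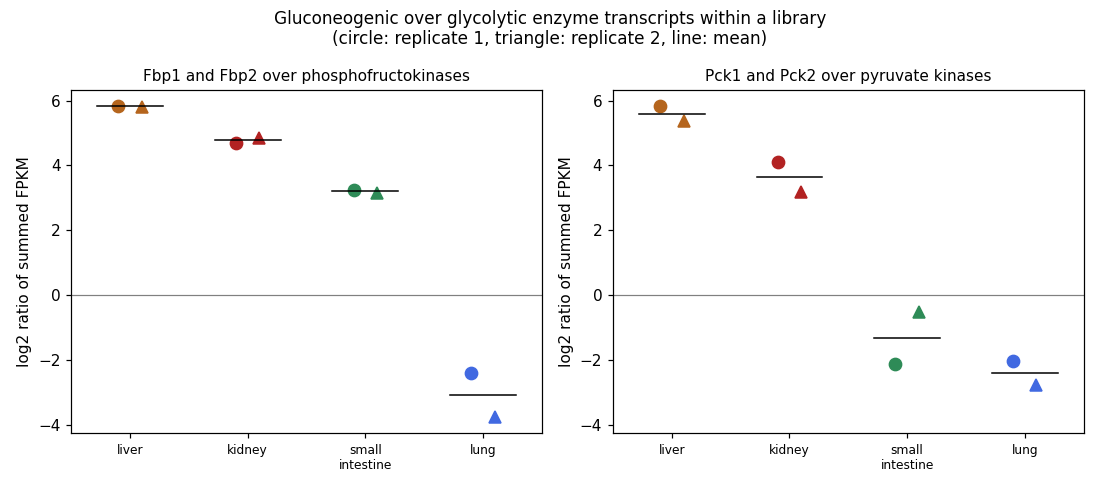
Log2 ratio of summed FPKM of gluconeogenic over opposing glycolytic enzymes within each library, for Fbp1 and Fbp2 over phosphofructokinases and for Pck1 and Pck2 over pyruvate kinases, with circles for replicate 1, triangles for replicate 2 and a line at the mean. The ratio of fructose bisphosphatases is above 0 in liver, kidney and small intestine and below 0 in lung, and that of carboxykinases is below 0 in small intestine as well, at -2.12 and -0.51.

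Fructose reaches Khk through transporters of the cell membrane. Slc2a5, the fructose transporter of the gut lumen also called GLUT5, was at 33.2 and 28.9 FPKM in small intestine, 16.1 and 13.99 in kidney, 1.32 and 0.769 in liver, and 0.271 and 0.189 in lung. These tissues did not overlap, and small intestine was called above liver (log2 of liver against small intestine -3.98, SE 0.19, limma adjusted p = 1.93e-06). Kidney was called above liver too (log2 of liver against kidney -2.98, SE 0.19, limma adjusted p = 1.34e-05). Slc2a2, the basolateral glucose and fructose transporter GLUT2, was at 52.7 and 61.3 FPKM in small intestine, 29.1 and 30.7 in liver, 25.1 and 16.4 in kidney, and 0.249 and 0.0699 in lung.

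Tkfc, the kinase for the glyceraldehyde released later in fructose breakdown, was at 182 and 180 FPKM in small intestine, 119 and 89.9 in kidney, 94.2 and 86.4 in liver, and 5.32 and 4.96 in lung. Of its exon length, 20.0% is shared with 2 genes of the opposite strand. Its log2 difference of the 3 tissues from lung was 4.29 (SE 0.13, limma adjusted p = 3.88e-07). Among the listed genes of fructose entry and breakdown besides Khk, Slc2a2, Tkfc, Sord, Slc2a5 and Glyctk were called higher in the mean of the 3 tissues than in lung. Akr1b3, which makes sorbitol from glucose, was called lower, but not after median-of-ratios scaling. Of the exon length of Glyctk, 54.2% is shared with 2 genes of the opposite strand.

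Across all 53 listed genes of the pathway's surroundings, of which 52 were tested, 26 were called higher and 12 lower in the mean of the 3 tissues than in lung, where 8.26% and 40.7% of all genes tested were. After median-of-ratios scaling the counts were 29 higher and 0 lower, where 16.9% and 15.1% of all genes were, so the lower calls depend on the scaling. In liver against kidney 14 were called higher and 15 lower, where 6.9% and 16.2% of all genes tested were, and 20 and 11 after the scaling, where 11.6% and 12.1% of all genes were. In liver against small intestine the counts were again 14 and 15, where 7.89% and 28.3% of all genes tested were, and 20 and 10 after the scaling, where 15.2% and 16.5% were. In kidney against small intestine they were 12 and 14, where 10.7% and 18.8% of all genes tested were, and 13 and 10 after the scaling, where 14.5% and 15.7% were. The balance of higher and lower calls in these lists thus depends on the scaling. The 7 genes and these lists were chosen with earlier results of the same data known, so the counts describe the lists and are no independent evidence.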

How the data were processed

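Polyadenylated RNA of 4 whole tissues was sequenced, and the sample titles gave tissue and replicate. The authors selected reads by sample index with bbduk, mapped them with STAR 2.5.3a to the Ensembl mouse genome (GRCm38), and deposited FPKM values computed in DESeq2. The counting program, its strand setting and its handling of reads with several matches are not given in the sources used here. All columns belong to the 8 samples.

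The scale of all tests was log2(FPKM + 1), over genes that reached an FPKM of 1 in 2 or more libraries. They used limma 3.58.1 (lmFit, contrasts.fit and eBayes with a trend) in R 4.3.3, with all 8 libraries in one fit and Benjamini-Hochberg adjustment over the 16328 genes. Fold values are ratios of mean FPKM. Depth was recovered from the low FPKM values and the exon lengths of GENCODE M21, which matched 51844 of 52195 symbols to a single gene. With a tolerance of 0.02 reads, 94.5% to 96.1% of the values under 50 reads came out whole in each library. The limma step was tested on simulated data. Floors and reads cover counting error only. The p-values rest on the spread between the 2 libraries per tissue, pooled over the 4 tissues and moderated by limma over all genes. Promoters are RefSeq sequences. Python 3.11.15, numpy 2.4.6, pandas 2.3.3 and matplotlib 3.10.9 were used.

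The results of some listed genes, and the ratio of G6pc to its opposing enzymes, are not reported here. The members and lists were chosen with earlier results of these data known. The genes named are the 7 members, the paralogs and opposing enzymes, at most 3 called genes per further list and contrast, and for each member the 3 genes most like it. Ldha, Alas2 and further genes of the fructose and regulator lists were named beyond this rule, after their values were seen. Alternatives changed the pseudocount (0.1), the filter, the scaling, the mitochondrial genes, the trend, a replicate block and the libraries included. A fit with limma-voom on the recovered reads was added after the data were seen.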

Additional observations from a re-analysis of the deposited data

How the results depend on the processing

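Calls and directions of the 49 log2 differences (7 genes in 7 comparisons) were the same in 49 of 49 with a pseudocount of 0.1, without the filter, without the trend and with limma-voom on the recovered reads. Median-of-ratios scaling turned 5 of them, none called under either scale: in liver against kidney G6pc to 0.51, Slc37a4 to 0.018, Fbp1 to 0.22 and Pcx to 0.15, and in small intestine against lung Pcx to 0.15. It ended the calls of Pklr in liver against small intestine and of Khk in liver against kidney, so that 1 of 7 genes was called between liver and kidney, and it added Slc37a4 in liver against small intestine (1.63). The share of higher among all called genes, 11.5% to 36.3% over the 7 comparisons as deposited, became 47.9% to 52.8% with it. Leaving out mitochondrial genes and restoring the sum added Slc37a4 in liver against kidney (-1.10) and Khk in liver against small intestine (-1.05).

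Leaving out 1 library moved the difference of G6pc between liver and kidney over a range of -0.42 to 0.36, with the sign turned without liver replicate 1 (0.36) or kidney replicate 1 (0.15). That of Khk between kidney and small intestine ranged from -0.054 to 0.20, with the sign turned without small intestine replicate 2. It ended the call of Pck1 in kidney against small intestine (values in the report) and added Slc37a4 in liver against small intestine without liver replicate 2 (1.06) and Khk without small intestine replicate 2 (-1.11). The members called ranged from 5 to 6 in liver and in kidney against small intestine. Taking the most abundant isoenzyme on each side in place of the sum moved the mean log2 ratio for Fbp1 and Fbp2 to 6.81 (liver), 5.69 (kidney) and 3.61 (small intestine), and that for Pck1 and Pck2 to -3.09 in lung. In lung the ratio for Fbp1 and Fbp2 went from -3.09 to -2.12, within the SD of 0.98 between the replicates. The cause of these shifts was not tested.

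The replicate block left all calls as they were, with 2, 5, 7, 6, 7, 6 and 7 members called in liver against kidney, liver against small intestine, liver against lung, kidney against small intestine, kidney against lung, small intestine against lung and the mean of 3 tissues against lung. The samples were not paired by number, since no label ties a library to a mouse. The correlation of same-numbered deviations lay between -0.217 and 0.0528, which cannot tell whether same-numbered libraries came from the same mouse. Depth limits Pklr in lung most among the 7 genes, at 15 and 10 reads.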

Other observations

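Several genes by which substrates enter gluconeogenesis differed between liver and kidney. Ldhb, the lactate dehydrogenase subunit of tissues that use lactate, was at 691 and 625 FPKM in kidney but 2.02 and 2.53 in liver, a log2 difference of liver from kidney of -7.66 (SE 0.15, limma adjusted p = 2.55e-07). The reverse was found for Gls2, the liver glutaminase, at 107 and 105 FPKM in liver and at most 0.915 in any other library (log2 6.59, SE 0.17, limma adjusted p = 2.55e-07). It was also found for Aqp9, the glycerol channel of hepatocytes, at 42.2 and 50.2 FPKM in liver (log2 5.49, SE 0.17, limma adjusted p = 3.71e-07). Gpt, the alanine aminotransferase, was at 174 and 142 FPKM in liver and 152 and 165 in small intestine but 9.76 and 7.37 in kidney, with kidney below small intestine by a log2 difference of -4.07 (SE 0.17, limma adjusted p = 1.47e-06). Of the 16 listed entry genes, 6 were called higher and 6 lower in liver than in kidney, where 6.9% and 16.2% of all genes tested were, and 7 higher and 3 lower after median-of-ratios scaling, where 11.6% and 12.1% were. Among those not called, the lactate dehydrogenase subunit Ldha was at 152 and 177 FPKM in liver and 170.3 and 179.9 in kidney. Against lung, 13 were called higher in the mean of the 3 tissues, where 8.26% of all genes tested were, and 14 after the scaling, where 16.9% were. Ldhb was called lower in this mean of log2 values, though not after median-of-ratios scaling, but kidney alone was called above lung for it (7.04-fold, log2 2.80, SE 0.15, limma adjusted p = 3.41e-06).

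Of the 18 listed regulators, 6 were called higher in the mean of the 3 tissues than in lung and 6 lower (Cebpb, Pfkfb3, Pfkfb4, Pfkfb2, Crtc2 and Cebpa), where 8.26% and 40.7% of all genes tested were. After median-of-ratios scaling 7 were called higher and 0 lower, where 16.9% and 15.1% of all genes were. Among those higher, Hnf4a, a nuclear receptor of liver, kidney and gut epithelium, was at 61.5 and 60.3 FPKM in liver, 93.8 and 62.2 in kidney, 58.7 and 79.3 in small intestine, and 0.764 and 0.350 in lung. Its log2 difference of the 3 tissues from lung was 5.49 (SE 0.20, limma adjusted p = 6.09e-07). Mlxipl, the factor that binds the kind of element printed for Pklr, was at 49.1 and 48.3 FPKM in liver, 33.1 and 38.6 in small intestine, 21.6 and 5.19 in kidney, and 0.999 and 0.697 in lung. Gcgr, the glucagon receptor, was at 101 and 111 FPKM in liver, 13.8 and 8.82 in kidney, and at most 0.611 in small intestine and lung.

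The genes whose log2(FPKM + 1) was most like each member over the 8 libraries, among 7090 genes compared, are given here. These correlations describe 4 tissues with 2 libraries each and carry no test. For G6pc they included Pipox (Pearson r 0.990) and Abat (0.987). For Fbp1 they were Pcbd1 (0.998), Sord (0.997) and Pafah2 (0.992). For Pcx they were Mut (0.996), Rida (0.994) and Shmt2 (0.993). For Pck1 they were Acadvl (0.992), Aldh1l1 (0.978) and Abat (0.977), and for Slc37a4 they included Decr1 (0.988) and Ehhadh (0.988). For Pklr they were Iqgap2 (0.982), Sdsl (0.982) and Fam136a (0.981), and for Khk Aldh9a1 (0.990), Aco1 (0.986) and Dhrs4 (0.984). The number of genes with r above 0.95 was lowest for Pklr (28) and highest for Pcx (86).

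Markers of pancreas were present in the small intestine libraries, with a summed level of 5 acinar markers of 1798 and 811 FPKM against at most 3.75 elsewhere. Their part in the values of the 7 genes was not tested.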
